A study of Rattus norvegicus with 17 samples.

Results

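Pimozide given before brainstem stimulation was studied in rats with spinal cord injury (SCI), through the contrast of group D with group C, written ±pim(st/SCI). Group D held 2 rats, numbered 75 and 76, with SCI, stimulation and pimozide at 1 mg/kg. Group C held 3 rats, numbered 89, 90 and 93, with SCI and stimulation but no drug. These 5 of the 17 rats of the series were chosen by their labels alone, and every gene that passed a filter on low counts was compared.

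All animals were female Sprague-Dawley rats of 10 to 12 weeks. The rats of groups B, C and D had a moderate thoracic contusion, and 3 days later, under isoflurane, all rats had an electrode placed in the nucleus raphe magnus (NRM). Groups C and D then received 2 h of stimulation, and in group D pimozide had been injected into the peritoneum 1 h before it began. Group B held 3 injured rats whose electrode carried no current, and group A held 4 rats with neither contusion nor current. Group E held 5 uncontused rats, which their treatment labels call unstimulated but which the study's methods define as stimulated. No vehicle injection is described for the rats without pimozide, and no injured rat received pimozide without stimulation, so that an effect of the drug on the stimulated response and an effect on the injured cord itself cannot be told apart. The cervical, thoracic and lumbar pieces of a cord, which included the pia-arachnoid, went into 1 library per rat, so that a value averages over the lesion and the tissue far from it. In such tissue fewer cells of a type and less RNA per cell cannot be told apart.

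Pimozide, used against psychosis and tics, blocks receptors of the dopamine D2 type and also the serotonin receptor 5-HT7. The NRM is a midline nucleus of the lower brainstem, rich in serotonergic neurons, that projects down the whole length of the cord. In the first days after a contusion the cord holds blood from torn vessels and neutrophils and macrophages that have entered from the circulation, and type I interferons are among the signals that such cells and the resident glia make and answer.

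The libraries of the 5 rats held 10513421 to 13883875 counts on genes, and 1 CPM (counts scaled to library size, here with TMM, the trimmed mean of M-values) stood for 10.9 to 14.0 counts. Rats of one group differed most within groups C and D. Over the 10445 genes of at least 10 CPM, the median difference between rats 75 and 76 was 0.21 on the log2 scale, and it was 0.18 to 0.25 between the rats of group C, against 0.10 to 0.17 between rats of the other groups. The count table names genes by Ensembl identifier, and only 99 identifiers could be given a symbol, all from the study's list of affected transcripts, of which 81 were listed for pimozide. That list was made from these same rats, so that the direction of its members in ±pim(st/SCI) is not independent evidence. Of 28 lists of genes by function or cell type, 18 matched none of the 99, including those of the dopamine and serotonin receptors, of cAMP signaling and of the markers of glia and endothelium, so that the labeled tissue could not be checked against its defining markers. Htr7 and Drd2, the genes of the receptors named above, are not reported for the same reason.

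With pimozide, 4 genes rose and 0 fell among the 15460 genes tested. The genes that rose were Masp1, which encodes a serine protease that starts the lectin pathway of complement, and 3 small nuclear or nucleolar RNAs. All 17 rats entered one model for the quasi-likelihood test of edgeR, p-values were adjusted by Benjamini-Hochberg, and calls needed both an FDR below 0.05 and a change of more than 1 on the log2 scale. Where no other test is named, a gene described as called or not called refers to this test. The 4 genes are 0.0259% of those tested, all of them higher. At an unadjusted p under 0.05 there were 1370 genes (8.86%), and the median log2(FC) over all genes was -0.02. DESeq2 called 32 genes, 26 higher and 6 lower. EdgeR's exact test, which the study's methods name, called 43 with the spread estimated from all 17 rats, 36 higher and 7 lower. Run on groups C and D alone, over all genes with a count, it called 73, of which 50 were higher and 23 lower. The number called and the absence of falls thus depend on the test.

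**Figure D1:**
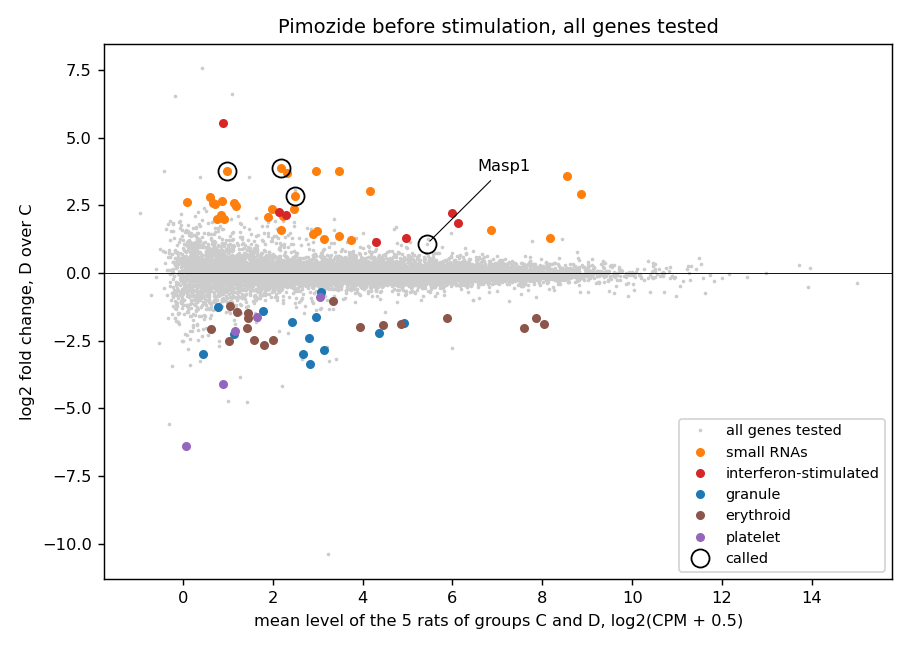
Each point is 1 of the 15460 genes, with its mean level in the 5 rats of groups C and D on the x axis, as log2(CPM + 0.5), and its log2 fold change, D over C, on the y axis; colors mark 5 lists of named transcripts and rings mark the 4 genes called. The ringed genes all lie above 0, and Masp1 is the ringed gene with the highest level and the smallest fold change, 1.08.

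The 2 rats of group D did not contribute alike. Without rat 76 the test called 0 genes, although 975 had an unadjusted p under 0.05, and without rat 75 it called 36, of which 23 were higher and 13 lower. In those 23, rat 75 itself lay above the highest rat of group C in 16, against 20% of all genes. In the 13 it lay under the lowest rat of group C in 6, against 20.5% of all genes. The genes called without rat 75 were chosen against these same rats of group C. Shares above those of all genes can thus arise without agreement of the 2 rats. Rat 76 lay above group C in 23.9% of all genes and under it in 28.5%, and was thus the more distant of the 2 rats in both directions. Both rats lay above all 3 rats of group C in 1359 genes (8.79%) and under them in 1427 genes (9.23%).

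Masp1 (ENSRNOG00000001827) had 57.1 CPM in rat 75 and 68.5 CPM in rat 76. In group C it had 31.5, 30.6 and 26.8 CPM in rats 89, 90 and 93. Both rats with pimozide thus stood well above the closely grouped rats without it, with no overlap. The mean of group C was 29.6 ± 2.46 CPM (SD, n = 3), and the log2(FC) was 1.08 (SE 0.12, adjusted p = 0.00178 in the edgeR model, Benjamini-Hochberg), a fold of 2.12.

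The level of Masp1 in injured rats without current was like that of group C. In group B it had 30.8, 29.0 and 25.8 CPM, and against these rats group D was higher by a log2(FC) of 1.14 (adjusted p = 0.000946 in the same edgeR model). The uncontused rats were lower still, with 16.4 to 20.4 CPM in group A and 16.2 to 20.8 CPM in group E, so that the 2 rats of group D were the highest of the 17. Rat 82 of group A, whose small RNAs stand apart as described further on, was within its group for Masp1, at 20.3 CPM.

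The call of Masp1 was lost in 2 settings. Without rat 76 its log2(FC) was 0.95 (adjusted p = 0.117 in the edgeR model), and in the quasi-likelihood test on groups C and D alone its adjusted p was 0.18. With group B added to that fit it was called (adjusted p = 0.0254), and edgeR's exact test on groups C and D alone, the pairwise exact test, called it (adjusted p = 7.81e-05). With a term for the rats' number series it was the only gene called, at a log2(FC) of 1.25 (adjusted p = 0.0237). Rats 75 and 76 belong to the numbers up to 76 and all rats of groups B and C to the numbers from 82. This term thus rests on groups A and E alone, where only rats 70 and 69 have numbers up to 76. What the numbers stand for is not stated.

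**Figure D2:**
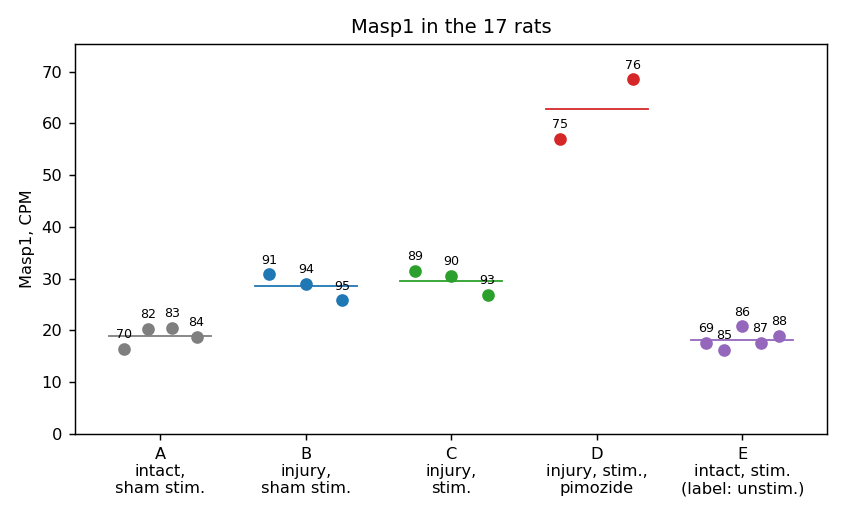
Each point is the level of Masp1 in 1 rat, in CPM after TMM scaling, with the rat's number beside it, and the lines are group means. The 2 rats with pimozide, at 57.1 and 68.5, lie above the 15 others, of which the highest is at 31.5.

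Complement is a cascade of blood and tissue proteases, and Masp1 was the only 1 of 28 complement genes on the list that had a symbol here, so the rest of the pathway could not be followed. The other named protein-coding transcripts belonged mainly to interferon-stimulated genes, which were higher with pimozide, and to genes of granulocytes, red cells and platelets, which were lower. None of these passed the quasi-likelihood test in the model of all rats with the filter on low counts.

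The study's list for pimozide holds 32 small non-coding RNAs, namely 15 snoRNAs, 10 snRNAs and 7 of the class called misc RNA. SnRNAs form the core of the spliceosome, and snoRNAs guide the chemical modification of ribosomal and other RNAs. Of the 31 that passed the filter, 3 rose and 0 fell, against 0.0259% of all genes called, and the median log2(FC) was 2.48 with a range from 1.22 to 3.86. Among these 31, the exact test on all groups picked out 18, against 0.278% of all genes, and DESeq2 picked out 12, against 0.207%. The pairwise exact test, which used no filter, called all 32 measured, against 0.333%. The quasi-likelihood test called 8 with no filter on low counts, against 0.071% of all genes, 8 in the fit of groups C and D alone, against 0.0603%, and 10 in the fit of groups B, C and D, against 0.106%. All 31 lay above group C in both rats, against 8.79% of all genes, but the study had listed them for a difference between these same rats. AABR07019037.1, the 1 member filtered out, had 6 and 7 counts in rats 75 and 76 and 0 in group C.

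AC129753.3, a snoRNA, had 8.48 CPM in rat 75 and 12.8 CPM in rat 76, against 1.83, 1.47 and 1.13 CPM in group C. Its log2(FC) was 2.84 (SE 0.45, adjusted p = 0.0481 in edgeR's quasi-likelihood model). The snRNA AABR07021745.1 had 6.84 CPM in rat 75 and 11.5 CPM in rat 76, while group C had 0.695, 0.552 and 0.608 CPM, and the log2(FC) was 3.86 (SE 0.64, with an edgeR adjusted p of 0.0481). Both transcripts were thus several times higher in each rat with pimozide than in any rat of group C. In group E, without pimozide, AC129753.3 had 4.06 to 9.72 CPM and AABR07021745.1 had 2.94 to 8.75 CPM, ranges that overlap group D. AABR07022185.1, also an snRNA, had 2.92 and 3.73 CPM against 0.348, 0.184 and 0.174 CPM, a log2(FC) of 3.75 (SE 0.62, adjusted p = 0.0481 in the same edgeR model), and here the 3 rats of group C had only 4, 2 and 2 counts. In group E it had 0.770 to 2.19 CPM, under both rats of group D.

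None of these 3 small RNAs was called when any single rat of group C or rat 76 of group D was left out, with robust dispersions, or with the number series term. Their log2(FC) in these settings was 2.52 to 3.24 for AC129753.3, 3.44 to 4.23 for AABR07021745.1 and 3.57 to 4.13 for AABR07022185.1, and the smallest adjusted p was 0.0537, with robust dispersions. In the fit of groups C and D alone, AC129753.3 and AABR07022185.1 were not called (adjusted p = 0.107 and 0.113 in edgeR's quasi-likelihood test). AABR07021745.1 was not called in that of groups B, C and D (adjusted p = 0.0793 by the same test). Among the other small RNAs with the largest log2(FC) were AABR07051357.1, AC135285.4, AC119459.4, AABR07031718.1 and AC119459.6, at 3.78, 3.76, 3.68, 3.05 and 2.80 (adjusted p = 0.106, 0.106, 0.116, 0.104 and 0.298 in the edgeR model). Several small RNAs carry names that share a clone, such as AABR07060522.2 and AABR07060522.3, and reads that fit near-identical copies equally well are not counted by STAR, so that the level of a single copy is uncertain. This pair had the highest levels of the class in group D. AABR07060522.3 had 800.4 and 1132 CPM in group D and 104, 149 and 128 CPM in group C, and AABR07060522.2 had 737 and 926 CPM in group D and 54.0, 88.5 and 67.3 CPM in group C. In group C the snoRNA AC136563.3 was the highest, with 166, 197 and 188 CPM against 433 and 456 CPM in group D. Both members of the pair were higher in each rat of group D without overlap, and neither was called in the model of all rats (adjusted p = 0.195 and 0.196 in edgeR's quasi-likelihood test). The same test called both in the fit of groups C and D alone (adjusted p = 0.029 and 0.0265), in that of groups B, C and D (adjusted p = 0.0127 and 0.00544) and without rat 82, and both exact tests called them too.

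The summed level of the 32 small RNAs was 435, 557 and 500 CPM in group C. It was 2399 CPM in rat 75 and 2960 CPM in rat 76. The rats of group D thus stood together at about the level of group E, which ran from 1964 to 5003 CPM without pimozide or injury. In group B the sum was 373 to 622 CPM. In group A it was 557, 493 and 492 CPM in rats 70, 83 and 84, but 3134 CPM in rat 82.

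Rat 82, labeled as a rat of group A without contusion, stimulation or drug, was above the other rats of its group in all 31 small RNAs tested, against 25.9% of all genes. Sums of 1964 CPM or more thus occurred in 6 of the 9 rats labeled as uncontused and without pimozide. Without rat 82 in the fit, an alternative added after the data were seen, 24 genes were called in ±pim(st/SCI) and 18 of these were small RNAs, against 0.155% of all genes called in that fit. The part of library preparation, of RNA composition or of the label of rat 82 in these values was not tested.

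**Figure D3:**
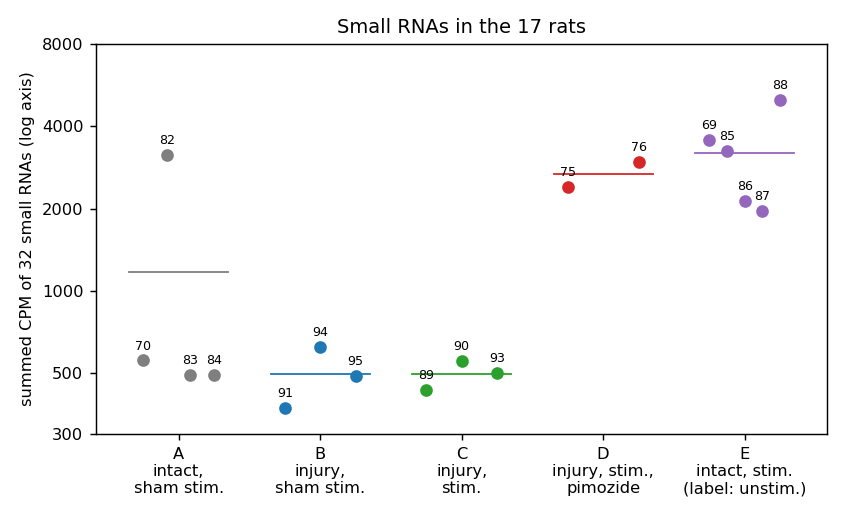
Each point is the summed CPM of the 32 small RNAs in 1 rat, on a log axis, with the rat's number beside it and lines at the group means. Rats 75 and 76 of group D and the 5 rats of group E lie between 1964 and 5003, with rat 82 of group A among them at 3134, and the other 9 rats lie between 373 and 622.

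Over the genes other than the small RNAs, rat 82 lay above the other rats of group A in 25.7% and under them in 28.4%. Where both rats of group D lay above group C, these shares were 29% and 22.2%, and where both lay under group C they were 20.5% and 35.2%. These shares were not tested against each other.

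Hnrnpa2b1, which encodes an RNA-binding protein of nuclear RNA processing and transport, was lower in the same rats. It had 86.9 CPM in rat 75 and 102 CPM in rat 76, against 210, 201 and 166 CPM in group C. The 2 rats were thus lower without overlap. The log2(FC) of -1.03 (SE 0.18) missed the threshold (adjusted p = 0.0801 in edgeR's quasi-likelihood model), but the gene was called by the exact test on all groups, by DESeq2, by the pairwise exact test, with no filter on low counts, in the fit of groups B, C and D and without rat 82. Rat 82 was the lowest of group A at 90.04 CPM, with the other 3 rats at 126 to 154 CPM, and group E had 79.3 to 108 CPM.

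Rps21-ps1, named as a pseudogene of a ribosomal protein, was higher in the same rats as the small RNAs. Rps21-ps1 had 3.49 and 3.36 CPM in group D, 0.956, 0.368 and 1.04 CPM in group C, 2.90 CPM in rat 82 and 2.25 to 4.00 CPM in group E, and it was not called (adjusted p = 0.154 in the edgeR model), except by both exact tests, by DESeq2 and without rat 82. The mitochondrial tRNA AY172581.15 had 14.5 and 7.54 CPM in group D and 1.04, 1.20 and 1.65 CPM in group C, a log2(FC) of 3.08 that was not called (adjusted p = 0.139 in the edgeR model), except by both exact tests, by DESeq2, with no filter on low counts and in the fit of groups B, C and D. It was likewise the highest of group A in rat 82, at 6.20 CPM, and group E had 4.76 to 24.2 CPM.

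Interferon-stimulated genes encode proteins that block virus replication and are switched on by type I interferons. Of the 49 genes on the list, 7 had a symbol, which were Mx1, Mx2, Oas2, Oasl, Ifit2, Gbp6 and Uba7. All 7 were listed by the study for pimozide from these same rats, so that their distance from group C was largely set in advance. Of these, 0 were called in either direction, and their median log2(FC) was 2.13. Both rats of group D lay above group C in each of the 7, against 8.79% of all genes, and rat 76 lay above rat 75 in each of the 7, against 49.9% of all genes. Their summed level was 199 CPM in rat 75 and 472 CPM in rat 76, against 64.6, 146 and 76.1 CPM in rats 89, 90 and 93.

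Mx1, a GTPase that traps viral ribonucleoproteins, had 61.4 CPM in rat 75 and 177 CPM in rat 76. In group C it had 13.2, 49.2 and 15.5 CPM. The gap between rat 75 and rat 90 was small beside the gap between the 2 rats of group D, and the log2(FC) of 2.20 (SE 0.55) did not pass the test (adjusted p = 0.191 in edgeR's quasi-likelihood model). Its paralog Mx2 had 74.4 and 168 CPM against 16.3, 55.3 and 30.1 CPM, with the same order of the rats, and its log2(FC) was 1.84 (SE 0.38, adjusted p = 0.106 in the edgeR model).

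Oas2 and Oasl belong to the family of oligoadenylate synthetases, whose catalytic members make the activator of RNase L. Oas2 had 5.35 and 9.54 CPM in group D and 0.956, 2.85 and 0.868 CPM in group C. Rat 90 was again the highest of its group. The log2(FC) of Oas2 was 2.25 (SE 0.43, adjusted p = 0.0935 in the edgeR model). Oasl had 4.35 and 11.99 CPM against 1.56, 2.95 and 1.04 CPM (adjusted p = 0.195).

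Ifit2, whose protein binds RNA and restrains viral translation, had 30.8 CPM in rat 75 and 64.0 CPM in rat 76, against 20.1, 21.3 and 16.8 CPM in group C. Rat 75 was thus closer to group C than to rat 76. The log2(FC) was 1.29 (SE 0.25, adjusted p = 0.0935 in the edgeR model). Uba7, the enzyme that activates the ubiquitin-like protein ISG15, had 22.5 and 34.7 CPM against 12.4, 14.7 and 11.8 CPM, with all 3 rats of group C close together, and its log2(FC) was 1.13 (SE 0.23, adjusted p = 0.106 in the edgeR model). Gbp6, a guanylate-binding protein induced by interferon gamma, had 7 counts in rat 75 and 67 counts in rat 76, against 1, 1 and 0 counts in group C. In group B it had 0.459, 2.89 and 1.44 CPM, so that rat 75, at 0.499 CPM, lay inside the range of injured rats without current.

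**Figure D4:**
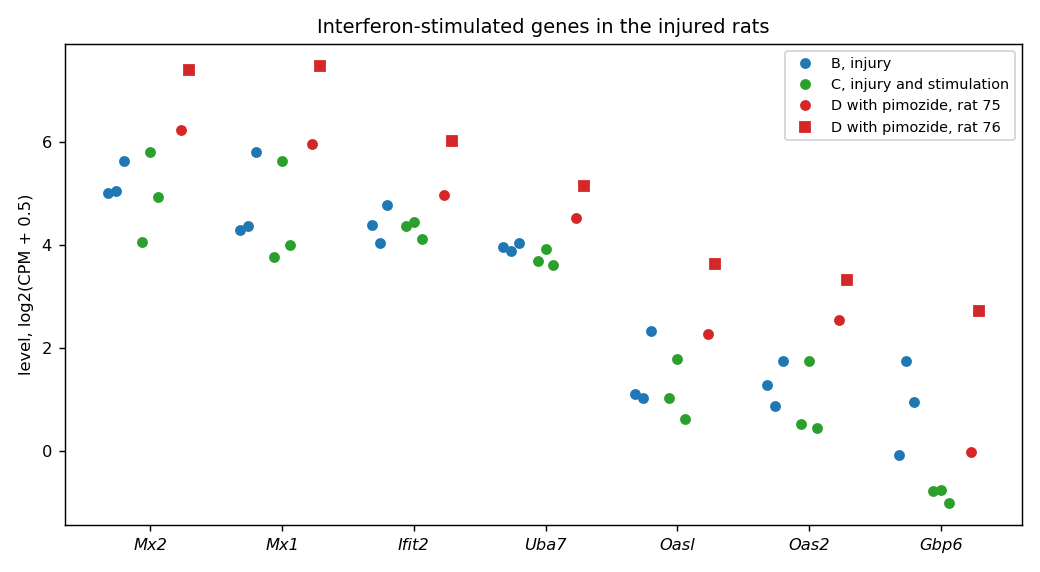
Points show the level of each of the 7 interferon-stimulated genes in the 8 injured rats as log2(CPM + 0.5), with groups B, C and D side by side and rat 76 drawn as a square. Rat 76 is the highest rat for all 7 genes, and rat 75 is above group C for all 7 and above group B for 5.

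Against group B, both rats of group D lay above in 5 of the 7 genes, Oasl and Gbp6 being the exceptions, while 10.7% of all genes did so. The median log2(FC) against group B was 1.66, and 0 of the 7 were called. In groups A and E the summed level of the 7 genes was 46.3 to 83.1 CPM, so that rats 75 and 76 had the highest sums of the 17. Without rat 75, 6 of the 7 were called, all but Oasl, against 0.228% of all genes in that fit, and without rat 76, 0 of the 7 were called, at a median log2(FC) of 1.23. DESeq2 called 5 of the 7, against 0.207% of all genes, and edgeR's exact test on all groups called 6, against 0.278%. The pairwise exact test called 4, against 0.333%. The quasi-likelihood test with no filter on low counts called 4, which were Mx2, Uba7, Ifit2 and Oas2, against 0.071% of all genes. With the filter it called Mx2 and Oas2 without rat 90 of group C, among 3 genes in all, and Oas2 without rat 82. Whether these genes were called thus depends on the test, on the filter and on the rats in the fit, rat 76 among them.

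Granule genes encode proteases, peroxidases and antimicrobial peptides that neutrophils and eosinophils store. Of the 30 genes on the list, 13 had a symbol and all 13 were tested, with 0 called in either direction. Both rats of group D lay under group C in 12 of the 13, against 9.23% of all genes, the median log2(FC) was -2.23, and the smallest adjusted p was 0.199 in edgeR's quasi-likelihood model. The symbols came from the study's list, made from these same rats, so that the lack of overlap was largely set in advance. The summed level was 43.6 CPM in rat 75 and 30.2 CPM in rat 76, and 162, 179 and 104 CPM in group C. The pairwise exact test called 8 of the 13, all lower, against 0.333% of all genes, while DESeq2 called Defa5 alone. Group B, without stimulation, had 21.5 to 30.7 CPM, so that group D lay near group B and far under group C. In the uncontused rats the sum ran from 7.61 CPM in rat 70 to 103.9 CPM in rat 84. Rat 84 was thus close to the lowest rat of group C, at 104.2 CPM.

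S100a8 and S100a9 encode the subunits of calprotectin, the most abundant protein of neutrophil cytosol. S100a8 had 7.06 and 5.36 CPM in group D against 30.3, 35.0 and 22.5 CPM in group C, and 5.30 to 6.15 CPM in group B. S100a9 had 12.97 and 9.904 CPM in group D against 40.1, 52.4 and 32.6 CPM in group C. Neither was called in the model of all rats (adjusted p = 0.494 and 0.559 in edgeR's quasi-likelihood test), but the pairwise exact test called both and the fit of groups B, C and D called S100a8.

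Mpo, the myeloperoxidase of primary granules, had 2.71 and 0.818 CPM against 10.95, 13.1 and 4.95 CPM, a log2(FC) of -2.41 (SE 0.79, adjusted p = 0.318 in the edgeR model). Defa5, a defensin, had 1.14 and 0.818 CPM against 12.7, 11.9 and 6.43 CPM, the lowest log2(FC) of the list at -3.37 (SE 0.89, adjusted p = 0.199). The defensins Np4 and RatNP-3b were lower as well, by a log2(FC) of -2.83 and -2.99 (adjusted p = 0.424 and 0.317 by the same test). With the number series term the list turned, with 9 of the 13 higher in group D and a median log2(FC) of 0.72, and across these groups pimozide and the number series cannot be told apart. That term rests on rat 70 of group A and rat 69 of group E. Their granule sums, 7.61 and 9.18 CPM, were the lowest of their groups. Abca13, a transporter gene of the ABC family, had a log2(FC) of -1.40 (adjusted p = 0.304). Fcnb, a ficolin of neutrophils, was the only member whose groups overlapped, with 5.56 and 5.997 CPM in group D and 14.2, 8.19 and 5.90 CPM in group C.

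Erythroid genes gave the same picture against group C with wider spread. Of the 34 on the list, 18 had a symbol, 0 were called, and both rats of group D lay under group C in all 18, against 9.23% of all genes, at a median log2(FC) of -1.91. Here too the symbols came from the study's list of these same rats, so that the lack of overlap was largely set in advance. The pairwise exact test called 6 of the 18, all lower, against 0.333% of all genes. Their sum was 393 CPM in rat 75 and 267 CPM in rat 76, against 687, 892 and 1959 CPM in group C. Rat 93 alone held more than the other 2 rats of group C together, and without it the median log2(FC) was -1.45. In group B the sum was 324 to 465 CPM, and in the uncontused rats it was 231 to 1166 CPM, a range that holds both rats of group D. With the number series term the median was -0.86, with 13 of the 18 lower.

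Hba-a1, an alpha globin gene, had 115 and 84.9 CPM in group D and 210, 266 and 635 CPM in group C, and its log2(FC) was -1.89 (SE 0.58, adjusted p = 0.295 in the edgeR model). Hbb-b1, a beta globin gene, had 14.4 and 7.27 CPM against 27.1, 32.2 and 62.1 CPM (adjusted p = 0.271). Hba-a2, another alpha globin gene, had a log2(FC) of -2.03 (adjusted p = 0.278). The globin genes are near-identical copies, and their reads may be split among them. Alas2, which starts heme synthesis in red cell precursors, had 5.99 and 4.63 CPM against 12.6, 13.8 and 37.2 CPM (adjusted p = 0.293), and Slc4a1, the anion exchanger of the red cell membrane, had 11.4 and 4.36 CPM against 21.5, 28.4 and 41.4 CPM (adjusted p = 0.389). Ahsp, a chaperone of alpha globin, and Hemgn, a nuclear protein of erythroid precursors, had log2(FC) values of -2.48 and -2.65 (adjusted p = 0.298 for each in the edgeR model), and Rhd, a blood group antigen of the red cell membrane, had -2.48 with the same adjusted p, and -4.27 without rat 75 or -1.79 without rat 76.

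Megakaryocyte and platelet genes were represented by 5 of 19. Both rats of group D lay under group C in all 5, against 9.23% of all genes, 0 were called, and the median log2(FC) of -2.15 was the value of Tubb1, the tubulin of the platelet marginal band. As for the other lists, naming through the study's list largely set the lack of overlap in advance. The pairwise exact test called 3 of the 5, Ppbp, Gp1ba and Tubb1, against 0.333% of all genes, and the exact test on all groups called Gp1ba, against 0.278%. The summed level was 6.27 and 7.81 CPM in group D, 20.5, 21.1 and 14.6 CPM in group C and 5.48 to 7.52 CPM in group B. Group D thus lay beside group B for this list too. In the uncontused rats the sum was 4.55 to 18.7 CPM, and the highest of them, rat 83 of group A, was inside the range of group C. Ppbp, a chemokine precursor of platelet granules, had 0.143 and 0.0909 CPM against 2.26, 3.31 and 1.04 CPM, a log2(FC) of -4.08 (SE 1.08, adjusted p = 0.199 in the edgeR model). Itga2b, the alpha subunit of the platelet fibrinogen receptor, had a log2(FC) of -0.87 (adjusted p = 0.338). Gp1ba, part of the receptor for von Willebrand factor, had 0 counts in both rats of group D and 12, 13 and 6 counts in group C, and was at least 7.68-fold lower with a floor of 3 counts over group D (adjusted p = 0.104).

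**Figure D5:**
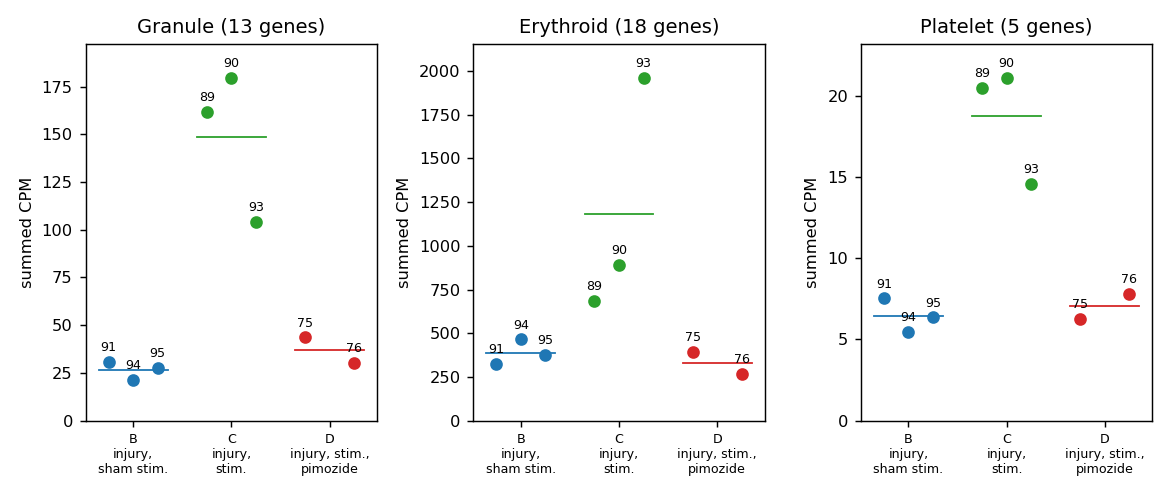
Each panel shows the summed CPM of 1 list (13 granule, 18 erythroid and 5 platelet genes) in the injured rats of groups B, C and D, with rat numbers beside the points and lines at the group means. In all 3 panels the 2 rats of group D lie under the 3 rats of group C and at about the level of group B.

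Group C is the side of these comparisons that stood apart among injured rats for the blood lists. Against group B, the median log2(FC) of group D was 0.48 for the granule list, -0.03 for the erythroid list and -0.69 for the platelet list, with 0 genes called in each. The interferon and small RNA lists kept their distance from group B, at medians of 1.66 and 2.43. Part of the study's list was chosen for a difference between groups C and B, so that these values describe the listed genes and do not test them.

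Over all genes, group D against group B gave 3 calls, which are 0.0194% of the genes tested, all higher. They were Masp1, AC129753.3 with a log2(FC) of 3.13 (adjusted p = 0.0256) and AABR07022185.1 with a log2(FC) of 4.30 (adjusted p = 0.035), in the quasi-likelihood test of edgeR, adjusted by Benjamini-Hochberg. All 3 were among the 4 called against group C. Leaving out any single rat of group B, or adding the number series term, left Masp1 as the only gene called against group B. The 2 contrasts share the rats of group D, so that a value peculiar to rats 75 and 76 enters both.

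Mmp13, a collagenase, had 0.570 CPM in rat 75 and 1.45 CPM in rat 76, against 9.91, 9.02 and 7.90 CPM in group C. The rats of group C were close together, and group B, with 1.28, 0.0962 and 0.867 CPM, was as low as group D. The log2(FC) was -3.17 (SE 0.88, adjusted p = 0.218 in edgeR's quasi-likelihood model) and -0.67 with the number series term, and the pairwise exact test called the gene (adjusted p = 1.25e-09). Ltc4s, the synthase of leukotriene C4, had 5.42 and 7.72 CPM against 2.00, 1.57 and 1.65 CPM, a log2(FC) of 1.91 (SE 0.36, adjusted p = 0.0935 in the edgeR model), with 1.92 to 5.01 CPM in group B, and it was called by both exact tests, by DESeq2, with no filter on low counts, without rat 75 and without rat 82. Gnb3, a G protein beta subunit, had 0.356 and 0.273 CPM against 1.13, 2.95 and 1.56 CPM, and group B was also higher at 1.73 to 2.22 CPM, yet the gene was not called (adjusted p = 0.195 in the edgeR model), except by the exact test on all groups.

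The axonemal dyneins Dnah8 and Dnah17, motors of beating cilia, were the 2 of 41 axonemal genes with a symbol. Neither was called by the quasi-likelihood test, and the pairwise exact test called both (adjusted p = 0.00458 for each). Dnah17 had 5.84 and 3.54 CPM in group D against 0.869, 1.47 and 1.13 CPM in group C, and its log2(FC) was 2.02 (SE 0.53, adjusted p = 0.199 in the edgeR model). Dnah8 had 3.06 and 2.82 CPM against 0.521, 0.737 and 0.955 CPM (adjusted p = 0.483), but 1 rat of group B reached 6.55 CPM. Slc17a7, the vesicular glutamate transporter VGLUT1 of neurons, was the only marker of neurons with a symbol, and its groups overlapped at 0.998 and 2.64 CPM against 0.261, 1.29 and 0.434 CPM.

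Actc1 and Rack1 were carried by rat 76 alone. Actc1, cardiac muscle actin, had 89 counts in rat 76 and 1 count in rat 75, against 0, 1 and 0 counts in group C. Rack1, a protein of the small ribosomal subunit, had 47 counts in rat 76 and 0 in rat 75 and in group C, while rat 87 of group E had 71. The identifier was at 0 in 11 of the 17 rats, and since every cell uses this protein, these counts cannot be read as the level of Rack1. RGD1564883, a predicted gene, had 0 counts in both rats of group D and 229, 149 and 122 counts in group C. It was at least 123-fold lower with a floor of 3 counts over group D, but it was not called (adjusted p = 0.215 in edgeR's quasi-likelihood model). It was called by DESeq2 (adjusted p = 0.00782), by the pairwise exact test (adjusted p = 5.12e-25) and in the edgeR fits of groups C and D (adjusted p = 0.0489) and of groups B, C and D (adjusted p = 0.00544). It was also at 1 count in every rat of group B, at 148, 186, 8 and 117 counts in rats 70, 82, 83 and 84 of group A and at 0 to 87 counts in group E.

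LOC103690079, which the study names as like the receptor of interleukin 23, had 2.78 and 1.09 CPM against 9.30, 21.8 and 8.42 CPM, a log2(FC) of -2.72 (adjusted p = 0.386 in the edgeR model) that was -0.40 with the number series term. The pairwise exact test called it (adjusted p = 0.00529).

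With no limit on fold change 1 more gene passed the FDR, the unnamed ENSRNOG00000033615. It had 171 CPM in rat 75 and 139 CPM in rat 76, against 298, 266 and 293 CPM in group C and 266, 299.6 and 262 CPM in group B. Both rats lay under all 6 injured rats without the drug, and its log2(FC) was -0.88 (SE 0.15, adjusted p = 0.0481 in the edgeR model). In uncontused rats it had 208 to 325 CPM, also above both rats of group D.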

How the data were processed

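RNA of 17 rat spinal cords was sequenced from ribosome-depleted stranded libraries, 1 per rat. The authors trimmed the single-end reads with Trim Galore, aligned them with STAR and deposited whole-number counts per Ensembl gene, with no normalization, for 32494 genes. The submitters' processing notes name Trim Galore 0.4.1, STAR 2.5.0a and the build Rnor_6.0 (rn6), whereas the study's methods name an earlier rat build, and the strand column counted is not given in the sources used here. No coordinates or sequences are given, because no annotation pairing these identifiers was used here.

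Totals ran from 9852873 to 14137717 counts per rat. The chi-square per degree of freedom between the counts of 2 rats of a group was 4.39 to 40.5, where counting error would give 1, so rats and not reads set the precision. Genes were filtered with filterByExpr, which left 15460, scaled with TMM and fitted with glmQLFit in 1 model with a coefficient per group (R 4.3.3, edgeR 4.0.16, limma 3.58.1), tested with glmQLFTest and adjusted by Benjamini-Hochberg. SEs were taken as the absolute log2(FC) over the root of the F statistic. Alternatives were DESeq2 1.42.0, edgeR's exact test in the same model, the exact test on each pair of groups over all genes with a count (the pairwise exact test), other scalings and filters, smaller fits, robust dispersions, a number series term (rats up to 76 against rats from 82), no limit on fold change, and each rat left out. The test was checked on simulated data, in which genes of at least 1 CPM were changed in group D. Of 67 with a true change of 1 on the log2 scale, which is also the limit for a call, 24 were called. At a change of 2 it was 55 of 67 and at 3 it was 65 of 66, with 3 false calls, so many changes of 1 go uncalled. With 2 rats against 3, a 2-sided exact permutation test of a single value cannot go under p = 0.1, and none is given.

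Genes named are those called, the 12 largest rises and 12 largest falls with an unadjusted p under 0.05, at least 1 CPM and no overlap, and up to 4 members of each list with the smallest p. S100a8, S100a9, AC136563.3, AABR07019037.1, Oasl, Mx1, Fcnb, Slc4a1, Hnrnpa2b1, Ltc4s, Rps21-ps1 and ENSRNOG00000033615 were added for the text after their values were seen. The comparison, the members and the lists were chosen with earlier results of these data known. A transcript listed by the study for pimozide is 1 of 81, of which 80 passed the filter. Figures were drawn with matplotlib 3.10.9.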

Additional observations from a re-analysis of the deposited data

Results flagged for a closer look

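The summed level of the 32 small RNAs in group A stood out because 1 rat lay far from the others. Rat 82 had 3134 CPM and the nearest of the other 3 rats 557 CPM, a gap of 0.975 of the whole range of the group. The snRNA AABR07021745.1, 1 of the 4 genes called with pimozide, showed the same rat apart, at 2.82 CPM against 0.987 CPM in the nearest rat, a gap of 0.851 of the range. Such a test was made 20 times, for groups of 4 or more rats, and chance marks about 1 in 20 groups. Groups B, C and D, with 2 or 3 rats, could not be tested in this way. The cause was not tested.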

How the results depend on the processing

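In ±pim(st/SCI) 4 genes were called, and 4 also with scaling by total counts, with RLE scaling and with a filter of 1 CPM in 2 rats, and 5 with no limit on fold change. The number was 43 with edgeR's exact test, 32 with DESeq2, 17 with no filter on low counts, 9 in a fit of groups C and D alone, 16 in a fit of groups B, C and D, 73 with the pairwise exact test, 1 with the number series term, 1 with robust dispersions and 24 without rat 82 of group A. With a single rat of groups C and D left out it ran from 0 (without rat 76) to 36 (without rat 75), where the lone rat of group D is assumed to vary like the other groups. It was 1 without rat 89 or rat 93 and 3 without rat 90. Against group B the 3 calls became 49 with the exact test, 23 with DESeq2, 7 with no filter on low counts, 13 in the fit of groups B, C and D, 85 with the pairwise exact test, 1 with the number series term and 26 without rat 82, and with a rat of groups B and D left out they ran from 0 (without rat 76) to 32 (without rat 75), with 1 without rat 91, 94 or 95. The cause of these changes was not tested. Masp1 was called in each of these settings except without rat 76 and in the fit of the 2 groups alone, for both comparisons. With the number series term the log2(FC) of Np4 turned to 0.72 and that of RatNP-3b to 1.45, and neither was called. With rats left out, the log2(FC) of Rack1 ran from 0 (without rat 76, where the rats left in groups C and D had 0 counts) to 8.59. No paired analysis was possible because the groups share no replicate numbers. At 1 CPM a value rests on 10.9 to 14.0 counts in the rats of groups C and D, which limits the transcripts near or under that level in any list.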
